A study of Mus musculus with 8 samples.

Results

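The genes of the tumor necrosis factor (TNF) receptor superfamily were followed in the transcriptome of a mouse fibroblastic reticular cell (FRC) line. FRCs are the contractile, matrix-producing stromal cells that scaffold lymph nodes. Described here are 10 of 28 superfamily genes listed, in a count table of 55367 genes: Tnfrsf21, Tnfrsf1a, Tnfrsf1b, Fas, Ltbr, Tnfrsf10b, Tnfrsf23, Tnfrsf11b, Tnfrsf12a and Tnfrsf19. The set was selected on measured values, since Tnfrsf21 was picked because its RNA was lower with both treatments. Its levels in these libraries are therefore a description and carry no test, and it is left out of every count of called members. Tnfrsf19 had no count in any library, which leaves 8 members with a test.

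RNA was sequenced from 8 libraries, 2 for each of 4 conditions, after 4 days of treatment. All conditions used 1 FRC line, made from lymph nodes of p53ER/ER C57BL/6 mice, so the p53 genotype is common to treated and control cells. The treatments were given in RPMI medium with low serum. TCM is medium that had been conditioned by B16.F10 melanoma cells, and its control, CCM, is medium conditioned by the FRCs themselves. LA is lactic acid at 15 mmol/L in RPMI, and its control, vehicle, is the same volume of water. The comparisons ask how a tumor secretome acts on FRCs and how lactic acid alone does. The labels do not say that the 2 libraries of a condition came from separate cultures, although the study calls them biological replicates. P values then measure the spread between these libraries only, and results from 1 line may not hold for others.

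Receptors of this superfamily are trimeric membrane proteins with cysteine-rich outer domains that bind ligands of the TNF superfamily. Those with a cytoplasmic death domain can recruit FADD or TRADD and caspases, whereas others bind TRAF adaptors and switch on NF-kB and MAP kinases. A few members act as decoys that hold ligand without a signal. In lymph nodes the lymphotoxin beta receptor and TNF receptors on stromal cells drive organ formation and the expression of homing chemokines.

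Counts per library ranged from 8232889 to 14107964, and 3 counts, taken as the floor of detection, equalled 0.212 to 0.355 CPM, which are counts scaled to a common library total. No molecular identifiers were used, so the floor covers counting error only. The 2 TCM libraries differed from each other more than the other pairs, with a chi-square per degree of freedom across genes of 20.6 against 3.31 to 7.45. The FRC markers Pdpn and Vcam1 lay between 114 and 187 CPM and between 136 and 215 CPM over the 8 libraries. Thy1 did not exceed 1.75 CPM, Ccl19 had 1 count in all, Ccl21a had none, and Cxcl13 had 43 counts in CCM replicate 1 and 0 in the other libraries. Of 8 listed markers of blood cells, 4 had counts and summed to 11 to 24.45 CPM, most of it from Lyz2 at 8.75 to 22.4 CPM, while the defining markers Ptprc, Cd3e and Itgam were at 0. The 7 markers of melanoma cells summed to between 1.82 and 3.67 CPM in all conditions, mainly from Pmel and Mitf, with Tyr at 0. Tyrp1 had 6 and 3 counts and Dct 1 and 1 in the TCM libraries, against 0 in all 6 others, and the part of such RNA in the TCM results was not tested. Of 7 endothelial markers, Prox1 was at 0 and Pecam1 stayed under 0.894 CPM, while Emcn reached 62.4 CPM. In bulk RNA, fewer cells of a type and less RNA per cell cannot be told apart.

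With TCM, 2 of the 8 tested members were called, both higher: Tnfrsf11b, the secreted decoy receptor osteoprotegerin, and Tnfrsf1b, the second TNF receptor. A gene was called at a Benjamini-Hochberg adjusted P value under 0.05 in edgeR's quasi-likelihood test and a log2 fold change (log2 FC) beyond 0.39. Among all 12137 genes tested, 19.1% were called for TCM against CCM, 8.83% higher and 10.2% lower. The members' share, 25%, was near this background. The members' median log2 FC was 0.16, beside 0.00 over all genes tested. With LA no member was called against vehicle, where 2.55% of all genes were called, 1.31% higher and 1.24% lower. Without adjustment 1 member, Tnfrsf23, had a P value under 0.05 there, and DESeq2 also called 0 members and had 1 with an unadjusted P value under 0.05. The members' median log2 FC with LA was -0.14.

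The difference between the TCM effect and the LA effect was tested as an interaction, and it was called for the same 2 genes, Tnfrsf1b and Tnfrsf11b, where 10.4% of all genes were called. CCM against vehicle called 0 of 8 members by edgeR and 0 by DESeq2, with 3 and 0 at an unadjusted P value under 0.05, against 1.3% of all genes called by edgeR. CCM and vehicle libraries serve in several of these comparisons, so the comparisons are not independent of each other.

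**Figure D1:**
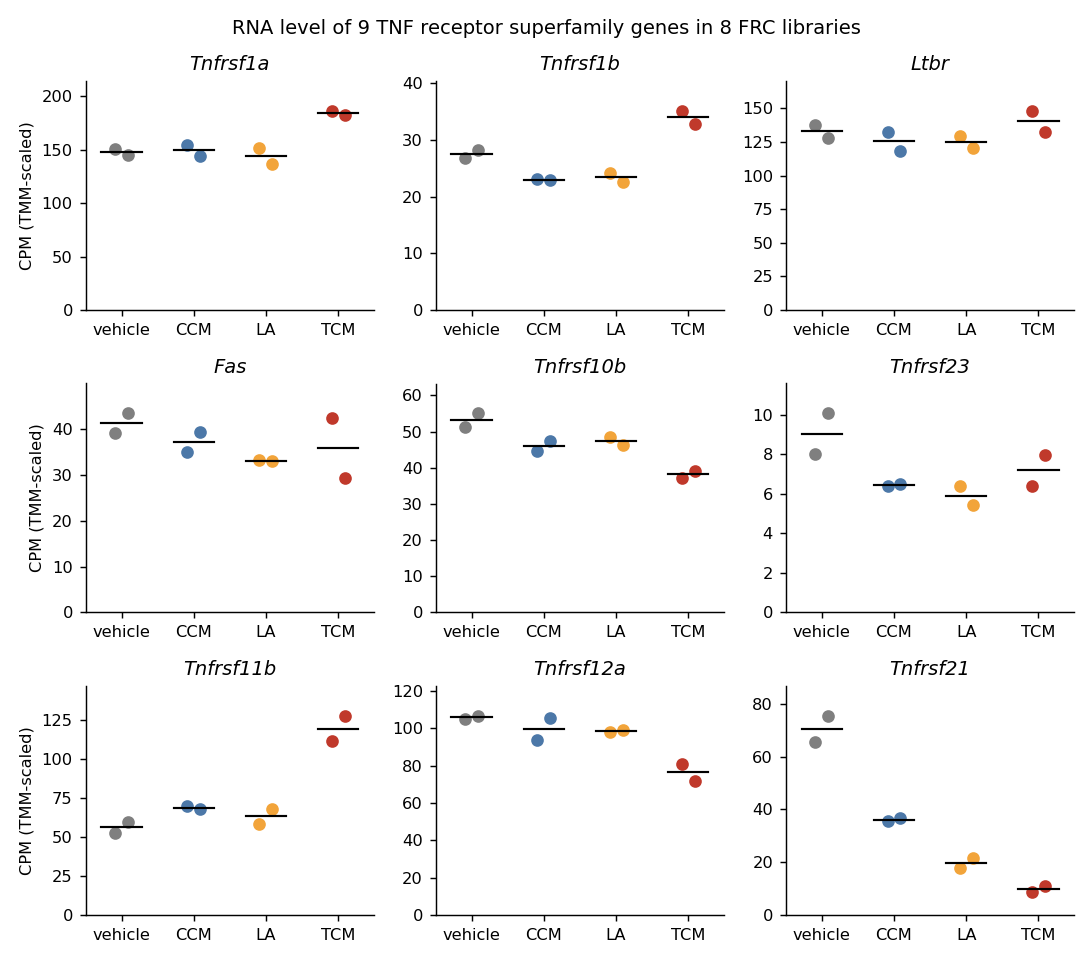
RNA level in CPM (y axes, each from 0) of 9 members in the 2 libraries of each condition (points), with the mean (bar). Tnfrsf21 stepped down from vehicle through CCM and LA to TCM, whereas Tnfrsf1b and Tnfrsf11b were highest in both TCM libraries.

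Tnfrsf21, also named death receptor 6, carries a death domain and is known from work on T cell and B cell activation and on axon pruning. The gene lies on chromosome 17 (chr17:43016555-43089189, plus strand, GRCm38) and overlaps no other annotated gene. Its level was 65.5 and 75.5 CPM in the vehicle libraries, 35.5 and 36.7 CPM with CCM, 17.6 and 21.6 CPM with LA, and 8.54 and 11.1 CPM with TCM. Every condition stood apart from every other, in the order vehicle, CCM, LA and TCM, and no 2 neighbours in that order overlapped. These levels rest on 81 to 816 counts per library, well above the floor of 3.

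As a description, Tnfrsf21 was 3.67-fold lower with TCM than with CCM (log2 FC -1.88, SE 0.16) and 3.56-fold lower with LA than with vehicle (log2 FC -1.83, SE 0.14). It was also 1.95-fold lower in the control CCM than in vehicle (log2 FC -0.97, SE 0.13). Of the 12137 genes tested, 131 had a lower log2 FC than Tnfrsf21 with TCM and 16 had a lower one with LA. Over the 16 other ways of processing the log2 FC ranged from -2.08 to -1.70 for TCM and from -2.00 to -1.71 for LA. Since the gene was picked for this fall in the same libraries, its ranks and these ranges are no test of it.

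The promoters of Tnfrsf21 and of Tnfrsf1b are shown because Tnfrsf21 led to the choice of the set and Tnfrsf1b is the member called with TCM for which a RefSeq window was at hand. Each sequence is the 250 bases before the RefSeq start of the gene on GRCm38.p6, written in the direction of transcription, with GC boxes (GGGCGG or its reverse complement CCGCCC) in capitals. Neither window overlaps an annotated exon.
Tnfrsf21, chr17:43016305-43016554, plus strand: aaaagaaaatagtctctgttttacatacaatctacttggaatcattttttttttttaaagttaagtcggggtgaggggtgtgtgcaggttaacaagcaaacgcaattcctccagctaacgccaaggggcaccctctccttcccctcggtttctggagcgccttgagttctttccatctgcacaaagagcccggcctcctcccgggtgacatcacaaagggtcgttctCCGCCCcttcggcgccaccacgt
Tnfrsf1b, chr4:145246871-145247120, minus strand: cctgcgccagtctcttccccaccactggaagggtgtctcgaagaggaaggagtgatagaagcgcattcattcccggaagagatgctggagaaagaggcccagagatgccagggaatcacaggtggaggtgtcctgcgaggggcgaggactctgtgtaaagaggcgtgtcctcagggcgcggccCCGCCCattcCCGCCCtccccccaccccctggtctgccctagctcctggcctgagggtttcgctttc
The Tnfrsf21 window held 1 GC box and was 50.4% G or C, and the Tnfrsf1b window held 2 GC boxes and was 62.8% G or C. A GC box on either strand occurred in 32.7% of 32851 such RefSeq windows. Neither window held the AP-1 motif TGAGTCA on either strand, which occurred in 4.46% of windows. Both also lacked the TATA box letters TATAAA, present in 12.4% of windows, and the NF-kB consensus, present in 7.25%, on either strand. These are matches of letters only, and nothing about factor binding was measured.

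The genes whose levels ran most like Tnfrsf21 over the 8 libraries, by Pearson correlation of log2 CPM, were Olfml2b (r = 0.988), Mxd4 (r = 0.987), Gxylt2 (r = 0.986), Pdgfc (r = 0.986) and Ctnnb1 (r = 0.986). Mxd4 is a MAX-binding repressor, Pdgfc a growth factor for mesenchymal cells, and Ctnnb1 encodes beta-catenin. The 8 libraries fall into 4 conditions, so these correlations mainly follow 4 steps and are given without a test. The steps differed in size: Ctnnb1 has a narrow range, while Gxylt2 came nearest to the range of Tnfrsf21.

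**Figure D2:**
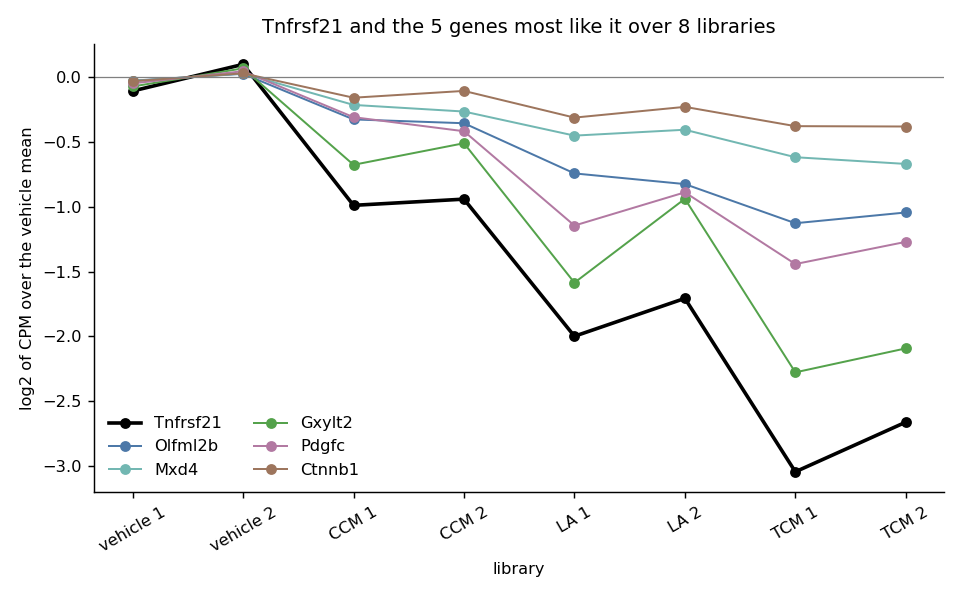
log2 of the CPM over the mean of the vehicle libraries (y axis) for Tnfrsf21 (black) and the 5 genes most like it (colors) in each library (x axis); lines only join the points of a gene. All 6 genes were highest in vehicle and lowest in TCM, and Tnfrsf21 spanned the widest range.

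Among the receptors for TNF itself, Tnfrsf1b rose with TCM and Tnfrsf1a did not pass the fold threshold. Tnfrsf1b (chr4:145213463-145246870, minus strand) encodes TNFR2, which lacks a death domain and signals through TRAF2. It had 26.8 and 28.1 CPM in vehicle, 23.0 and 22.8 CPM with CCM, 24.1 and 22.6 CPM with LA, and 35.1 and 32.9 CPM with TCM. Both TCM libraries stood above all 6 others, and the 2 LA libraries lay below the 2 vehicle libraries. The log2 FC for TCM was 0.57 (SE 0.11, edgeR adjusted P = 0.00407), a 1.48-fold increase. For LA it was -0.24 (SE 0.11, edgeR adjusted P = 0.368), and the difference of the effects was 0.80 (SE 0.16, edgeR adjusted P = 0.00729). That difference includes the gap between CCM and vehicle, since both CCM libraries also lay below vehicle.

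Tnfrsf1a (chr6:125349362-125362484, plus strand) encodes TNFR1, the death domain receptor that carries most responses to soluble TNF. Its level was 151 and 145 CPM in vehicle, 155 and 144 CPM with CCM, 152 and 136 CPM with LA, and 186 and 183 CPM with TCM. The TCM libraries again lay above the others, while vehicle, CCM and LA overlapped. The log2 FC with TCM was 0.30 (SE 0.09, edgeR adjusted P = 0.0386), under the fold threshold, so it was not called.

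Of the death receptors for Fas ligand and TRAIL, none was called with either treatment. With LA both libraries of Fas, Tnfrsf10b and Tnfrsf23 lay below both vehicle libraries, and with TCM Tnfrsf10b alone stood apart from CCM. How many of all genes separate in this way was not counted, so this is a description. Fas (chr19:34290666-34327772, plus strand) starts the death-inducing complex once bound by Fas ligand. Its level was 39.1 and 43.5 CPM in vehicle, 35.1 and 39.4 CPM with CCM, 33.2 and 33.1 CPM with LA, and 42.5 and 29.3 CPM with TCM. One TCM library was the lowest of the 8 and the other lay near the top, and the log2 FC with TCM was -0.05 (95% interval -0.40 to 0.30, edgeR adjusted P = 0.851). Its log2 FC was -0.35 without TCM replicate 1 and 0.19 without TCM replicate 2, neither of them called. With LA the log2 FC was -0.32 (SE 0.16, edgeR adjusted P = 0.394).

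Tnfrsf10b (chr14:69767472-69784411, plus strand), the mouse death receptor for TRAIL, had 51.4 and 55.0 CPM in vehicle and 44.5 and 47.4 CPM with CCM. It had 48.6 and 46.2 CPM with LA and 37.3 and 39.2 CPM with TCM. Both TCM libraries were lowest, but the log2 FC of -0.26 (SE 0.10, edgeR adjusted P = 0.0938) was not called. Without TMM factors it was called, at -0.40 (edgeR adjusted P = 0.0169, and from 0.0169 to 0.377 over all alternatives). With LA the log2 FC was -0.17 (SE 0.10, edgeR adjusted P = 0.52).

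Tnfrsf23 (chr7:143665809-143685872, minus strand) encodes a mouse TRAIL receptor without a death domain, regarded as a decoy. Its level was low, at 8.04 and 10.1 CPM in vehicle, 6.41 and 6.5 CPM with CCM, 6.39 and 5.43 CPM with LA, and 6.43 and 7.97 CPM with TCM. Both LA libraries lay below vehicle, with a log2 FC of -0.64 (SE 0.20, edgeR adjusted P = 0.137) that was not called. Its exons share 164 bases with an antisense gene and it is a close relative of its neighbour Tnfrsf22, so its counts are uncertain.

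Ltbr (chr6:125306571-125313885, minus strand), the lymphotoxin beta receptor that feeds noncanonical NF-kB in lymphoid stroma, stayed within a narrow range. It had 138 and 128 CPM in vehicle, 132 and 118 CPM with CCM, 129 and 121 CPM with LA, and 148 and 133 CPM with TCM. The log2 FC was 0.16 with TCM (95% interval -0.06 to 0.39, edgeR adjusted P = 0.286) and -0.09 with LA (95% interval -0.32 to 0.13, edgeR adjusted P = 0.785). Both intervals lay inside the fold threshold.

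Tnfrsf12a (chr17:23675445-23677468, minus strand) encodes Fn14, the receptor of TWEAK, which is linked to tissue repair. It had 105 and 107 CPM in vehicle, 93.6 and 106 CPM with CCM, 98.2 and 99.0 CPM with LA, and 80.9 and 71.9 CPM with TCM. Both TCM libraries lay below all others, with a log2 FC of -0.38 (SE 0.10, edgeR adjusted P = 0.0210) that fell just short of the fold threshold. It was called without TCM replicate 1, at a log2 FC of -0.47, and without TMM factors, at -0.52 (edgeR adjusted P = 0.00430 and 0.00364, and from 0.00364 to 0.199 over all alternatives).

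Tnfrsf11b (chr15:54250619-54278484, minus strand) rose the most among the tested members. Osteoprotegerin, its product, is a soluble receptor that holds RANKL, the ligand encoded by Tnfsf11, and can also bind TRAIL. The level was 52.8 and 59.6 CPM in vehicle, 70.1 and 67.8 CPM with CCM, 58.4 and 68.1 CPM with LA, and 112 and 128 CPM with TCM. Both TCM libraries stood far above the other 6, and LA overlapped with vehicle and CCM. The log2 FC with TCM was 0.80 (SE 0.11, edgeR adjusted P = 0.000638), a 1.74-fold increase, which was called under all 16 alternatives that keep the fold threshold. With LA it was 0.17 (SE 0.12, edgeR adjusted P = 0.587), and the difference of the effects was 0.62 (SE 0.16, edgeR adjusted P = 0.0333). That difference lost its call without vehicle replicate 1 or 2, CCM replicate 1 or 2, or LA replicate 1, and without TMM factors, with adjusted P values up to 0.149.

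**Figure D3:**
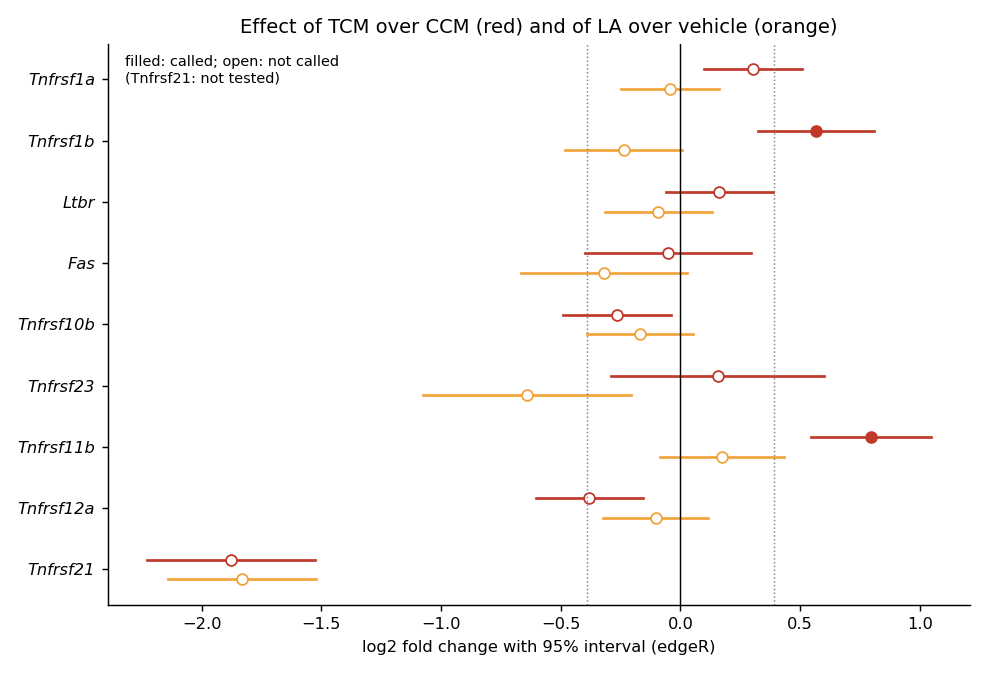
log2 FC with 95% interval (x axis) of 9 members for TCM against CCM (red) and LA against vehicle (orange); dotted lines mark the fold threshold of 0.39. Tnfrsf11b and Tnfrsf1b were called with TCM, none was called with LA, and Tnfrsf21, at -1.88 and -1.83, is drawn as a description without a test.

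Per kilobase of exon, Tnfrsf1a, Ltbr and Tnfrsf12a were the most abundant members, at 60.4, 55.6 and 49.2 CPM per kb over all libraries, each above at least 92.3% of the genes tested. With TCM alone, the means of Tnfrsf11b, 42.5 CPM per kb (SD 4.1), and Tnfrsf12a, 39.6 CPM per kb (SD 3.3), lay close together. Over all libraries Tnfrsf11b followed at 27.3 CPM per kb and Fas at 17.9 CPM per kb. Tnfrsf10b, Tnfrsf21 and Tnfrsf1b lay close together at 8.48, 8.28 and 7.06 CPM per kb. Tnfrsf23 stood at 1.81 CPM per kb. In vehicle Tnfrsf21 reached 17.2 CPM per kb, and with TCM 2.39 CPM per kb. Tnfrsf19, a receptor of embryonic tissue and hair follicles, had 0 counts in 8 libraries, which allows at most 3 counts or 0.355 CPM in any one of them.

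The other 18 superfamily genes held 7 with enough counts for a test, of which 3 were called with TCM and 0 with LA by edgeR. In TCM against CCM this made 5 called of 15 tested receptors without Tnfrsf21, or 33.3% beside 19.1% of all genes, with 3 higher and 2 lower and a median log2 FC of 0.16. The count includes Tnfrsf18, which was tested only through the conditions where it is higher than with TCM, so the count supports no statement about the family. The calls outside the 10 members were Eda2r, Relt and Tnfrsf18. Eda2r, the receptor of ectodysplasin A2, had 58.8 and 65.1 CPM in vehicle, 46.6 and 50.9 CPM with CCM, 47.1 and 47.4 CPM with LA, and 23.0 and 30.3 CPM with TCM. Both TCM libraries were lowest, and the log2 FC was -0.87 (SE 0.14, edgeR adjusted P = 0.00107) with TCM and -0.39 (SE 0.13, edgeR adjusted P = 0.164) with LA. The LA effect was called without TCM replicate 1 or 2 and in the fit of only the libraries compared (edgeR adjusted P = 0.0179, 0.0179 and 0.0401).

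Relt, a receptor of lymphoid tissue, had 14.3 and 12.8 CPM with CCM and 18.3 and 21.3 CPM with TCM, without overlap. Its log2 FC was 0.54 (SE 0.14, edgeR adjusted P = 0.0190), and the call was lost without CCM replicate 1 or 2 or TCM replicate 2 and under 3 further alternatives, with adjusted P values from 0.00889 to 0.153 over all alternatives. Tnfrsf18, which encodes the T cell costimulator GITR, had 16 and 27 counts in vehicle, 19 and 27 with CCM, 9 and 20 with LA, but 3 and 1 with TCM. The TCM libraries were at or under the floor, 9.61-fold below CCM by depth-scaled counts with a counting interval of 3.51 to 36.8. Of its exon bases, 414 overlap an antisense gene. Tnfrsf13c, Tnfrsf22, Tnfrsf25 and Edar were tested and not called in either comparison. Tnfrsf4, Tnfrsf14 and Ngfr had too few counts for a test. Cd40, Cd27, Tnfrsf8, Tnfrsf9, Tnfrsf11a and Tnfrsf26 did not exceed the floor in any library, and Tnfrsf13b and Tnfrsf17 had no count.

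**Figure D4:**
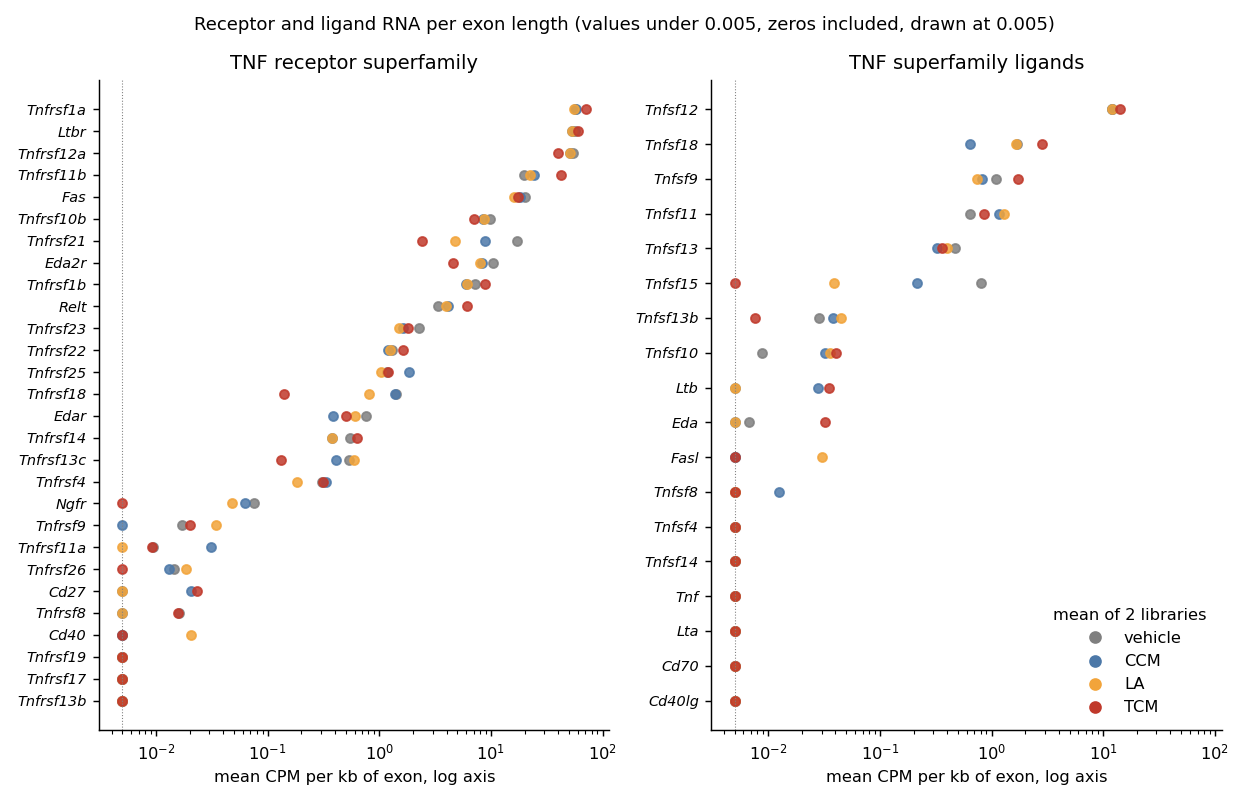
Mean CPM per kb of exon over the 2 libraries of each condition (x axes, log scale, colors) for 28 receptors (left) and 18 ligands (right), with values under 0.005 drawn at 0.005. Most ligands lay near the left edge, and Tnfrsf18, Tnfrsf13c and Tnfrsf21 are among the receptors in which TCM stood below the rest.

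The FRCs held little RNA of the ligands. Of 18 TNF superfamily ligands, 9 did not exceed the floor in any library, and 6 of these, among them Tnf and Lta, had no count. Tnfsf10, Tnfsf13, Tnfsf13b, Tnfsf15 and Eda exceeded the floor but had too few counts for a test, and 4 ligands were tested. Tnfsf18, the ligand of GITR, rose with TCM: it had 4.36 and 2.68 CPM in vehicle, 1.01 and 1.62 CPM with CCM, 4.61 and 2.26 CPM with LA, and 5.27 and 6.55 CPM with TCM. TCM lay above CCM without overlap, but CCM was itself below vehicle, and vehicle reached close to the TCM level. The log2 FC was 2.17 (SE 0.40, edgeR adjusted P = 0.00324) for TCM and -0.10 (SE 0.37, edgeR adjusted P = 0.95) for LA, and the difference of the effects was 2.27 (edgeR adjusted P = 0.0246).

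Tnfsf12, which encodes the Fn14 ligand TWEAK, was the most abundant ligand per length at 12.5 CPM per kb, and was not called. Tnfsf11, the ligand held by osteoprotegerin, had 3.12 and 2.10 CPM with CCM and 2.42 and 1.42 CPM with TCM, which overlapped (edgeR adjusted P = 0.496). Tnfsf9, the ligand of 4-1BB, had 0.675 and 1.43 CPM with CCM and 2.42 and 2.07 CPM with TCM, and its log2 FC of 1.11 (SE 0.42, edgeR adjusted P = 0.0824) was not called.

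Downstream of the receptors, 3 lists of signaling genes had 5%, 13% and 26.7% of their tested genes called with TCM, beside 19.1% of all genes, and 5%, 0% and 0% with LA, beside 2.55%. These shares scatter around the background and are not read as results about the lists. Of 20 tested death receptor adaptors, caspases and necroptosis genes, 1 was lower with TCM, where the median log2 FC was -0.04, and 1 was lower with LA. With TCM it was Pidd1, a death domain protein of the caspase-2 complex, at 24.5 and 20.7 CPM with CCM and 10.9 and 9.71 CPM with TCM (log2 FC -1.14, SE 0.20, edgeR adjusted P = 0.00203). With LA it was Bid, which links death receptors to mitochondria, at 24.7 and 20.1 CPM in vehicle and 14.2 and 12.8 CPM with LA (log2 FC -0.73, SE 0.14, edgeR adjusted P = 0.0260). The call of Bid was lost whenever any 1 of the vehicle, CCM or LA libraries was left out, with adjusted P values from 0.0513 to 0.205.

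Of 23 TRAF adaptor and ubiquitin machinery genes, 1 was higher and 2 were lower with TCM (median log2 FC -0.12), and 0 were called with LA (median -0.07). Map3k5, the stress kinase ASK1, had 5.48 and 6.02 CPM with CCM and 0.948 and 0.764 CPM with TCM (log2 FC -2.73, SE 0.32). It had only 9 and 7 counts in the TCM libraries and passed the count filter only outside TCM. Map3k5 is therefore described without a P value, although the count of lower genes includes it. Traf4 had 43.8 and 43.3 CPM with CCM and 25.9 and 22.8 CPM with TCM (log2 FC -0.84, SE 0.11, edgeR adjusted P = 0.000415). Rnf31, the catalytic part of the linear ubiquitin ligase, was the higher one (log2 FC 0.48, SE 0.12, edgeR adjusted P = 0.0165), and it lost its call without CCM replicate 1 or 2 or TCM replicate 2, without TMM factors and in the fit of only the libraries compared, with adjusted P values from 0.0514 to 0.140.

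Of 15 NF-kB subunits, kinases and inhibitors, 2 were higher with TCM, Rel and Bcl3, and 2 were lower, Relb and Nfkbie, with a median log2 FC of -0.03. None was called with LA (median -0.02). Relb, the partner of p52 in noncanonical NF-kB, had 22.2 and 19.98 CPM with CCM and 13.8 and 13.6 CPM with TCM (log2 FC -0.62, SE 0.13, edgeR adjusted P = 0.00724). Rel rose by a log2 FC of 0.62 (SE 0.16, edgeR adjusted P = 0.0158) and Bcl3, a nuclear IkB protein, by 0.85 (SE 0.21, edgeR adjusted P = 0.0163). All 4 calls were lost without CCM replicate 1, and those of Rel, Bcl3 and Nfkbie also without CCM replicate 2. Rel further lost its call without TCM replicate 2 and in the fit of only the libraries compared. DESeq2 called neither Bcl3 nor Nfkbie, and Nfkbie also lost its call without TCM replicate 1.

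Genes known to answer TNF and NF-kB moved both ways. Of 23 tested, 5 were higher and 4 lower with TCM, 39.1% beside 19.1% of all genes called. The median log2 FC was -0.20 with TCM, and 1 gene was lower with LA. The TCM calls include Lcn2, which passed the count filter only through TCM and 1 LA library, and Mmp9, which passed only outside TCM. The list was also chosen with earlier results of these data known. The share is therefore not read as a result about the list. Csf1, the growth factor of macrophages, had the smallest adjusted P value and went from 675 and 657 CPM with CCM to 1582 and 1825 CPM with TCM (log2 FC 1.35, SE 0.15, edgeR adjusted P = 0.000113). Lcn2, an iron-scavenging protein of innate defense, went from 0.759 and 0.574 CPM to 5.59 and 4.69 CPM (log2 FC 2.92, SE 0.35). It is described without a P value, since only the high TCM libraries and LA replicate 2 let it pass the count filter. Tnfaip2 rose from 74.0 and 69.6 CPM to 113 and 116 CPM (log2 FC 0.67, SE 0.09, edgeR adjusted P = 0.000480).

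Cxcl1, a neutrophil chemokine, fell from 26.6 and 32.6 CPM with CCM to 9.27 and 6.66 CPM with TCM (log2 FC -1.89, SE 0.43, edgeR adjusted P = 0.0102). Its call was lost without CCM replicate 2, TCM replicate 1 or TCM replicate 2, with adjusted P values from 0.0506 to 0.299, and with no filter on low counts (0.235). Lif, a cytokine of the interleukin 6 family, was called lower in both comparisons, with a log2 FC of -1.58 (SE 0.37, edgeR adjusted P = 0.0116) for TCM and -1.56 (SE 0.29, edgeR adjusted P = 0.0204) for LA. It lost the LA call without either vehicle library or LA replicate 2, and the TCM call without CCM replicate 2. Of 11 lymphotoxin target genes of lymphoid stroma only 5 could be tested, of which Relb alone was called, lower with TCM. This share of 20% was near the 19.1% of all genes, and Relb was already counted in the NF-kB lists above. The median log2 FC of the 5 genes was -0.31 with TCM and 0.03 with LA.

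All 6 listed genes around the shedding of receptors from the cell surface were tested, and 3 were lower with TCM and 2 with LA. These shares were 50% beside 10.2% of all genes called lower with TCM, and 33.3% beside 1.24% with LA. The list was chosen with earlier results of these data known, so the shares are not read as a result about it. Timp3, which inhibits the sheddase ADAM17, had 4170 and 4873 CPM in vehicle, 2622 and 2595 CPM with CCM, 2324 and 2425 CPM with LA, and 1434 and 1647 CPM with TCM. The conditions did not overlap, and their order was that of Tnfrsf21. The log2 FC was -0.76 (SE 0.12, edgeR adjusted P = 0.00112) with TCM and -0.93 (SE 0.12, edgeR adjusted P = 0.00283) with LA. For CCM against vehicle it was -0.79 (SE 0.12, edgeR adjusted P = 0.0235), a call lost without vehicle replicate 1 and without CCM replicate 1. Rhbdf2 and Rhbdf1 encode iRhom proteins that bring ADAM17 to the surface. Rhbdf2 fell with TCM (log2 FC -0.65, SE 0.16, edgeR adjusted P = 0.0128) and with LA (log2 FC -1.10, SE 0.15, edgeR adjusted P = 0.00385), and Rhbdf1 with TCM (log2 FC -0.51, SE 0.10, edgeR adjusted P = 0.00494). The TCM call of Rhbdf2 was lost without either CCM library, that of Rhbdf1 without CCM replicate 2, and the LA call of Rhbdf2 without LA replicate 2. Adam17 itself had 90.5 and 81.6 CPM with CCM and 106 and 112 CPM with TCM, a log2 FC of 0.34 under the fold threshold.

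Fas, Tnfrsf10b and Eda2r are also known targets of p53, and the list of p53 targets was the one with the most calls. Of 23 tested, 12 were lower with TCM and 0 were higher, 52.2% beside the 10.2% of all genes called lower. The median log2 FC was -0.39 with TCM. With LA edgeR called 0 and DESeq2 called 1, with a median of -0.18. As the list was chosen with earlier results of these data known, the share is not read as a result about it. The TCM count was 7 without CCM replicate 1 and 7 without CCM replicate 2, and between 8 and 14 under other scalings and DESeq2. Trp53inp1, a stress-induced nuclear protein, had 176 and 172 CPM with CCM and 87.3 and 104 CPM with TCM (log2 FC -0.86, SE 0.11, edgeR adjusted P = 0.000226). Sesn2, a stress-induced regulator of mTORC1, had 109 and 113 CPM with CCM and 45.7 and 57.0 CPM with TCM (log2 FC -1.12, SE 0.14, edgeR adjusted P = 0.000313). Pmaip1, which encodes the BH3-only protein Noxa, had 22.3 and 24.2 CPM with CCM and 9.80 and 10.4 CPM with TCM (log2 FC -1.20, SE 0.16, edgeR adjusted P = 0.000361). In these 3 genes the TCM libraries stood below all others. Of the receptors on this list, Eda2r was called and Fas and Tnfrsf10b were not. The line carries p53ER alleles in all conditions, and the activity of p53 was not measured.

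**Figure D5:**
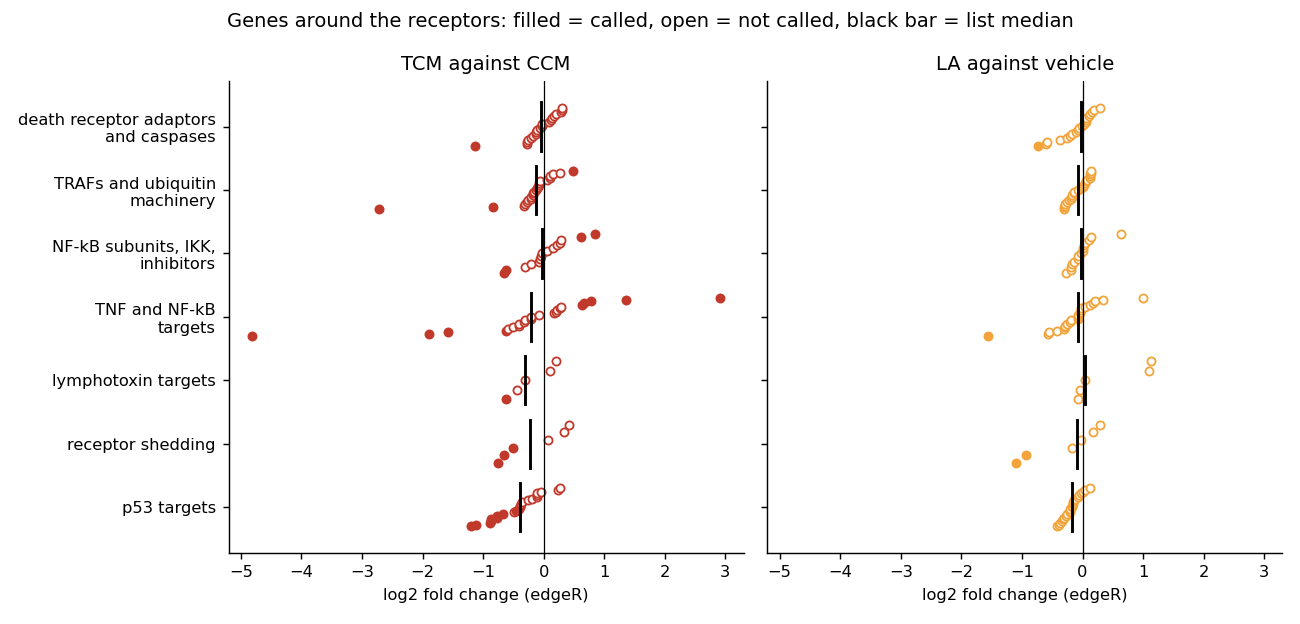
log2 FC (x axes) of the tested genes of 7 lists (y axis) for TCM against CCM (left) and LA against vehicle (right); filled points were called and black bars are list medians. With TCM the p53 targets leaned to the left with 12 called lower, and with LA few points were filled in any list.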

How the data were processed

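The authors prepared directional poly(A) libraries and sequenced them on a NextSeq500. Their methods and the submitters' processing notes name STAR 2.7.0a, the GRCm38 genome and featureCounts (Subread 2.0.1), while the strand option of featureCounts is not given in the sources used here. Values deposited are raw read counts of each gene. The other deposited table is called normalized, but 100% of its entries, for 12137 genes, are the same raw counts, and it was used only for this check. The authors tested with DESeq2 1.32.0. All sample columns were used (0 left out).

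Labels gave each library's condition. A gene needed 10 or more counts in 3 or more libraries to be tested, which left 12137. The test was edgeR 4.0.16 in R 4.3.3 (TMM, estimateDisp, robust glmQLFit, glmQLFTest), with 1 mean per condition and all 8 libraries fitted together. Benjamini-Hochberg adjustment ran over all tested genes, and a call required adjusted P below 0.05 plus a log2 fold change beyond 0.39, the threshold in the study's methods. CPM were computed with TMM-scaled totals. The SE is the log2 fold change divided by the root of F, and intervals are 95%. GENCODE M21 supplied positions and exon lengths, although counting used an Ensembl annotation. RefSeq (GRCm38.p6) supplied promoters for 8 of the 10 members, not for Tnfrsf10b and Tnfrsf11b. On counts simulated for TCM against CCM over 12015 genes, 81.8% of 2-fold and 99.0% of 4-fold changes were recovered. The simulation gave all conditions the same spread, whereas the real TCM libraries differed more, so recovery there may be lower. Changes under 2-fold were not simulated.

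Named genes are the 10 members, all other receptors of the superfamily, each tested ligand, the 5 genes most like Tnfrsf21 and, for every pathway list, at most 3 called genes per direction and comparison, ranked by adjusted P. Not all of these are given with values. Lists covered receptors, ligands, death receptor adaptors, TRAF adaptors, NF-kB subunits, TNF and NF-kB targets, lymphotoxin targets, p53 targets, receptor shedding, and markers of FRCs, blood, endothelial and melanoma cells. The members and lists were chosen with earlier results of these data known. Alternatives were the size factors of DESeq2, no TMM factors, DESeq2 1.42.0, 2 other low-count filters, fits of only the compared libraries, 3 other fold rules, a replicate block and omission of each library. A block with crossed CCM numbers was chosen after seeing the data.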

Additional observations from a re-analysis of the deposited data

Results flagged for a closer look

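Tnfrsf1b and Tnfrsf11b stood out because the effect of TCM over CCM differed from that of LA over vehicle by the interaction test. For Tnfrsf1b the effects were 0.57 and -0.24 on the log2 scale, a difference of 0.80 (SE 0.16, edgeR adjusted P = 0.00729). The 2 TCM libraries lay above CCM, while the 2 LA libraries lay below vehicle. Both CCM libraries also lay below vehicle, so the difference includes the gap between CCM and vehicle. The call held under all 15 alternatives with the same fold threshold, with adjusted P values from 0.00137 to 0.0442. For Tnfrsf11b the effects were 0.80 and 0.17, a difference of 0.62 (SE 0.16, edgeR adjusted P = 0.0333). That call was lost under 6 of 15 alternatives, with adjusted P values from 0.00412 to 0.149. What sets the treatments apart was not tested, and each difference rests on 2 libraries per condition.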

How the results depend on the processing

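Member counts for LA against vehicle and for CCM against vehicle were 0 under every alternative run. For TCM against CCM the count of 2 became 4 without TMM factors and 4 by adjusted P value alone, 1 beyond a log2 fold change of 0.68 and 0 beyond 1, and was 2 to 3 with each library left out. For the difference of the effects the count of 2 became 1 without TMM factors, 1 beyond 0.68 and 0 beyond 1, and was 1 to 3 with each library left out. Without TMM factors the median log2 fold change of all genes for TCM was -0.14, and 24.2% of calls were higher against 46.3%. The replicate block left the member counts at 2, 0, 2 and 0, and so did crossing the CCM numbers. Same-numbered libraries deviated together among vehicle, LA and TCM (r from 0.106 to 0.353 across genes) but not between these and CCM (r from -0.242 to -0.0406), so the numbers are not taken as a pairing. With the CCM numbers crossed, all genes called went from 310 to 596 for LA, from 158 to 457 for CCM against vehicle and from 1268 to 1938 for the difference of the effects, and with the numbers as labelled to 356, 193 and 1316. With TMM, all genes called for TCM numbered 1195 and 1284 without CCM replicate 1 and 2, and all genes called for LA numbered 57 to 617 with each library left out. For CCM against vehicle, all genes called numbered 0 to 5 without a vehicle or CCM library and 494 to 497 without a TCM library, and for the difference of the effects 629 to 2540 with each library left out.

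Directions turned only for values not called in the fit of all libraries, given here as ranges of log2 fold changes over the fits with a library left out. With TCM these were Tnfrsf23 (-0.0055 to 0.30), Fas (-0.35 to 0.19) and Edar (-0.026 to 0.92). With LA they were Tnfrsf1a (-0.12 to 0.034), Tnfrsf13c (-0.19 to 0.77), Tnfrsf22 (-0.23 to 0.17), Tnfrsf25 (-0.58 to 0.39), Tnfsf12 (-0.062 to 0.11) and Tnfsf18 (-0.62 to 0.41). Fas also turned in the difference of the effects (-0.027 to 0.51, called without TCM replicate 2), as did Tnfrsf21, which carries no test (-0.25 to 0.13), and Tnfrsf1a in CCM against vehicle (-0.039 to 0.063, and -0.0052 with no filter on low counts). Of 1230 values of tested single genes and lists under an alternative, 1157 kept their direction and side of the threshold, 47 lost and 8 gained a call. The cause was not tested. With 2 libraries per condition, small changes and genes of few counts, such as Tnfrsf18, Tnfrsf23 and most ligands, are measured least well.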

Other observations

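Tnfsf15, which encodes the ligand TL1A of Tnfrsf25, was singled out after its values were seen and had too few counts for the test. The vehicle libraries held 19 and 35 counts and each CCM library held 8. The LA libraries held 1 and 2, and neither TCM library held any (0). Vehicle stood above CCM, and CCM above LA and TCM. The LA and TCM libraries were all under the floor of 3 counts, so they are not ranked against each other. By depth-scaled counts Tnfsf15 was 20.6-fold lower with LA than with vehicle (counting interval 6.69 to 103). It was 3.81-fold lower with CCM than with vehicle (counting interval 2.15 to 7.14). With TCM it was at least 2.24-fold lower than with CCM, set against the floor of 3 counts per library. Tnfrsf21 was likewise highest in vehicle and higher with CCM than with LA and TCM.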
